A study of Mus musculus with 6 samples.

Results

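Matrix metalloproteinases (MMPs), ADAMTS proteases and the tissue inhibitors of metalloproteinases (TIMPs) were compared between primary mammary epithelial cells (MEC) and MEKO tumor cell lines. Genes were taken by symbol alone, as every Mmp gene, every numbered Adamts gene and every Timp gene in the expression table. This gave 46 of the 37753 genes with values, of which 23 encode MMPs, 19 encode ADAMTS proteases and 4 encode TIMPs. RNA sequencing covered 3 MEC preparations and 3 MEKO lines with 1 library each, and expression is given as FPKM, fragments scaled to the length of the transcript and to the size of the library. The MEC came from WAPCre+ control females of strain C57/Bl6J, virgin and 10 to 12 weeks old, with the glands of 3 to 5 animals combined, and were grown on collagen I until nearly confluent. The MEKO lines, numbered 199, 233 and 336, carry the genotype Mapk8KO Mapk9KO Cre+ on the same strain. They were derived from mammary tumors of mice that had borne litters, and they spent 2 passages on collagen I before growth on standard dishes; the labels give no age for these mice. Mapk8 and Mapk9 encode the protein kinases JNK1 and JNK2. Cre is driven in both groups by the whey acidic protein promoter, which is active in luminal cells of the lactating gland, so a gene is lost only in cells that have expressed it and in their progeny. Mouse records of the study list adenosquamous carcinoma under number 199, adenosquamous carcinoma together with adenocarcinoma under 233, and adenocarcinoma under 336, and that these numbers belong to the lines was assumed. Genotype, tumor origin, parity and culture history differ together between the groups and cannot be told apart.

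MMPs and ADAMTS proteases are zinc-dependent enzymes that cut collagens, proteoglycans and other proteins of the extracellular matrix. Most MMPs are made as inactive precursors, and the membrane-type MMPs act at the cell surface, where they can activate other MMPs. TIMPs bind to the active site of these enzymes, and the balance of proteases and inhibitors shapes branching, involution and tumor invasion in the mammary gland.

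The libraries were of similar depth, with a relative depth of 0.92 to 1.30 times that of MEC 1 as estimated from the smallest values. FPKM was 19.2 to 25.1 for Mapk8 and 21.5 to 24.4 for Mapk9 in MEC, against 1.37 to 5.93 and 3.07 to 7.62 in the lines. The 5 markers of luminal epithelium summed to between 5308 and 8869 FPKM in MEC and to 789, 1962 and 1282 FPKM in lines 199, 233 and 336, and each of them was present in every library. Line 199 stood apart from the other lines: its 6 basal and myoepithelial markers summed to 1865 FPKM against 9.92 and 45.1 in lines 233 and 336, and its 8 fibroblast markers to 1111 against 2.43 and 4.23. The MEC held 1282 to 2242 FPKM of the basal markers and 118 to 207 of the fibroblast markers. The 4 endothelial markers summed to 13.3, 15.2 and 1.64 FPKM in MEC and to at most 0.473 FPKM in the lines, and of the 4 adipocyte markers Adipoq, Plin1 and Cidec were below 1 FPKM in every library, while Fabp4 was at 7.74, 11.7 and 1.28 FPKM in MEC and at most 1.12 FPKM in the lines. The part of these markers in the results was not tested.

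Of the 46 genes, 26 had a mean of at least 1 FPKM over the 6 libraries and were tested: 11 MMPs, 12 ADAMTS proteases and 3 TIMPs. In the fit of limma over 12461 genes on log2(FPKM + 1), 8 of the 26 passed an adjusted p of 0.05 with a log2 fold change beyond 0.75, while 9.9% of all tested genes did. On this scale the change of a gene with a low FPKM is understated. Expression of 6 genes fell in MEKO, namely Mmp9, Mmp12, Adamts1, Adamts3, Adamts8 and Adamts15, against 7.26% of all tested genes. Mmp11 and Timp2 rose, against 2.64% of all tested genes. The median log2 fold change was -1.06 over the 26 genes, with 20 below 0, and 0.01 over all tested genes. The MEC and MEKO values did not overlap for 15 of the 26, 12 of them lower in MEKO, where 37.2% and 18.7% of all tested genes behaved so. The 3 genes higher in MEKO without overlap stood against 18.5% of all tested genes. At an unadjusted p of 0.05, 13 of the 26 passed, against 28.2%. With 3 libraries against 3, an exact permutation test (two-sided) of any 1 gene cannot go below 0.1. Mmp12, Adamts3, Adamts8 and Adamts15 were tested only because of their level in MEC, since their mean in MEKO was under 1 FPKM, and Adamts14 and Mmp24 only because of their level in MEKO. These counts are therefore a description of the genes that could be tested and do not stand for the 46. They also depended on single libraries: 1 gene, Mmp12, was called without MEC 1 or without MEC 2, and 17 genes were called without line 199. The calls over all tested genes moved the same way, from 1234 of 12461 with all libraries to 259 of 12422 without MEC 1. They were 301 of 12405 without MEC 2 and 1966 of 12434 without line 199.

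**Figure D1:**
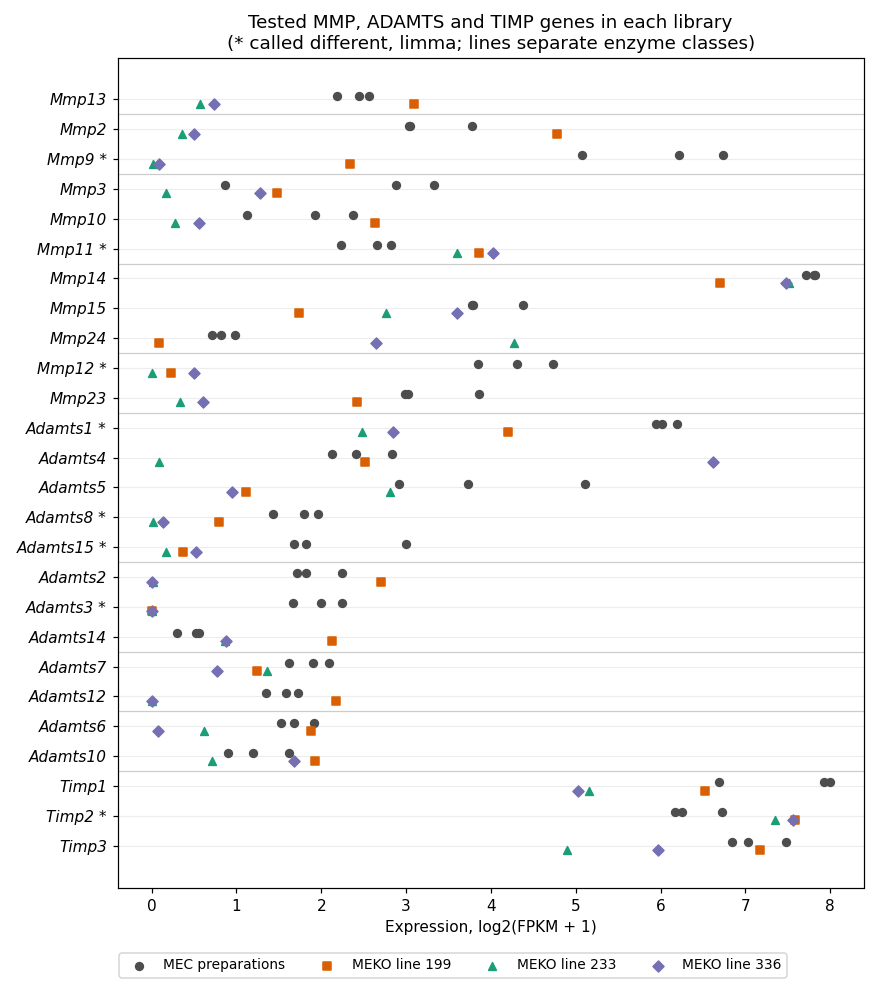
FPKM of the 26 tested MMP, ADAMTS and TIMP genes, with 1 point per library on a log2(FPKM + 1) axis, grouped by role; grey points are the 3 MEC preparations and colored points are MEKO lines 199, 233 and 336. Mmp9, Mmp12 and Adamts1 lie far below MEC in each line, Mmp11 and Timp2 lie above, and for Mmp2, Mmp13 and Adamts2 line 199 lies on the opposite side of MEC from the other lines.

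The gelatinases Mmp2 and Mmp9 digest denatured collagen and basement membrane collagen, and they showed different patterns. Mmp9 (chr2:164940780-164955850 of GRCm38, plus strand) was at 73.1, 105.9 and 32.8 FPKM in the 3 MEC preparations and at 4.07, 0.00826 and 0.0609 FPKM in lines 199, 233 and 336. The lowest MEC value was thus well above the highest line, and lines 233 and 336 held almost no Mmp9 RNA. The means were 70.6 ± 36.6 and 1.38 ± 2.33 FPKM (SD, n = 3 each), a log2 fold change of -5.20 (SE 0.73, limma adjusted p = 0.0110). The adjusted p was 0.0601 without MEC 1 and 0.0562 without MEC 2. Mmp2 was at 7.25, 7.19 and 12.7 FPKM in MEC and at 26.4, 0.280 and 0.416 FPKM in lines 199, 233 and 336. Line 199 lay above all MEC preparations and lines 233 and 336 below them, so the log2 fold change of the group mean was -1.41 with an SE of 1.17 (adjusted p = 0.467). Without line 199 the adjusted p of Mmp2 was 0.00386.

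Mmp12, the macrophage elastase, had the lowest adjusted p of the 26 genes. It was at 13.4, 25.6 and 18.9 FPKM in MEC and at 0.174 and 0.415 FPKM in lines 199 and 336, and it was listed at 0 in line 233. All lines lay below 1 FPKM and no MEC preparation did. The log2 fold change was -4.05 (SE 0.28, adjusted p = 0.00154), and Mmp12 was called under each of the 13 alternative settings, with an adjusted p of at most 0.0116. Mmp9 and Mmp12 are also expressed by macrophages and other leukocytes. The 5 leukocyte markers with values summed to 22.4, 27.03 and 43.0 FPKM in MEC and to 0.954, 3.08 and 24.9 FPKM in lines 199, 233 and 336. Among them Lyz2, the macrophage lysozyme, was at 16.5, 19.6 and 32.9 FPKM in MEC and at or below 0.0182 FPKM in the lines. Ptprc, which encodes the pan-leukocyte antigen CD45, was under 1 FPKM in every library. It was at 0.190, 0.399 and 0.329 FPKM in MEC and 0.00793, 0.0146 and 0 FPKM in lines 199, 233 and 336. Itgam was at 0.794, 1.06 and 1.21 FPKM in MEC and at most 0.00773 FPKM in the lines. Csf1r was at 1.46, 1.79 and 1.95 FPKM in MEC and 0.152, 0.333 and 1.41 FPKM in the lines. Cd68, which encodes a lysosomal protein of macrophages, differed from Lyz2, at 3.46, 4.21 and 6.59 FPKM in MEC and 0.771, 2.73 and 23.5 FPKM in lines 199, 233 and 336. The part of these markers in the Mmp9 and Mmp12 results was not tested, and in bulk RNA fewer cells of a type and less RNA per cell cannot be told apart.

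Mmp12 is 1 of 10 MMP genes that stand side by side on chr9:7272514-7699585, a region of 427.1 kb in GRCm38. Their order is Mmp13, Mmp12, Mmp1b, Mmp3, Mmp1a, Mmp10, Mmp8, Mmp27, Mmp20 and Mmp7, and the GENCODE annotation places no other protein-coding gene between them. They include the collagenases, most stromelysins and the matrilysin Mmp7. Collagenases cut fibrillar collagen, and stromelysins have a broad range of matrix substrates. Mmp12, Mmp13, Mmp3 and Mmp10 had a mean of at least 1 FPKM, and the other 6 stayed below 1 FPKM in every library. The promoters of this cluster share a short sequence that the selection of genes did not use. The letters TGANTCA, a palindromic pattern that covers both strands and includes TGACTCA and TGAGTCA, the binding element of AP-1, the Jun and Fos dimer regulated by JNK, were searched in RefSeq promoter windows of GRCm38.p6 that run from 250 bases before to 50 bases after a start. Of the 46 genes, 32 matched a window. The 14 without one all lie outside the cluster and were not searched. The motif was present in 8 of the 10 cluster genes and in 0 of the other 22, while 8.97% of all 27025 genes and 7.81% of all 32851 windows hold it. TGACTCA or TGAGTCA was present in 7 of the 10 and in 0 of the 22, against 5.95% of all genes, and the eighth match, Mmp20, reads TGAATCA. The 10 are neighboring genes of the same family and cannot be taken as independent of one another. No test compared these shares, and a link of the motif to the expression values was not tested. The stretches of 61 bases around the motif follow for the 4 cluster genes that were tested, all on the plus strand and with the motif in capitals. The motif begins 35, 44, 46 and 63 bases before the annotated start of Mmp13, Mmp12, Mmp3 and Mmp10, and for Mmp12 the start is the second of those annotated.
Mmp13, chr9:7272452-7272512: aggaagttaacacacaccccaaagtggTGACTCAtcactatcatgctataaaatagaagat
Mmp12, chr9:7347303-7347363: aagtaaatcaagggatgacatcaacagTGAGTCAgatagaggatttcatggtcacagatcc
Mmp3, chr9:7445749-7445809: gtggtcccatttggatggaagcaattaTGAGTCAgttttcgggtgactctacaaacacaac
Mmp10, chr9:7502252-7502312: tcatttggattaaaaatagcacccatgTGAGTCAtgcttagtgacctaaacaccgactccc
A match describes letters in a window and is not evidence that a factor binds there.

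Those 4 genes did not move together. Mmp13, the main interstitial collagenase of the mouse, was at 3.56, 4.91 and 4.47 FPKM in MEC and at 7.53, 0.481 and 0.666 FPKM in lines 199, 233 and 336. It was therefore above MEC in line 199 and below MEC in the other lines, and the group difference was not called (log2 fold change -0.94, SE 0.67, adjusted p = 0.402). Mmp10 had the same order, at 4.17, 2.81 and 1.19 FPKM in MEC and 5.18, 0.214 and 0.470 FPKM in the lines (log2 fold change -0.66, adjusted p = 0.557). Mmp3 was at 6.37, 9.08 and 0.825 FPKM in MEC and 1.79, 0.126 and 1.43 FPKM in the lines. MEC 3 was lower than lines 199 and 336, so the groups overlapped and Mmp3 was not called (log2 fold change -1.38, adjusted p = 0.251). Of the 7 AP-1 subunit genes tested, Jun fell from 57.4 ± 3.79 to 9.18 ± 1.18 FPKM (adjusted p = 0.000927) and Fos fell from 25.5 ± 1.93 to 5.12 ± 2.52 FPKM (adjusted p = 0.00903; mean ± SD, n = 3 each). Fos was at an adjusted p of 0.0561 without MEC 1. Fosl1, another Fos family gene, was at 10.4, 19.3 and 2.38 FPKM in MEC and at 23.2, 62.6 and 29.2 FPKM in the lines, which was not called (adjusted p = 0.132). Junb, Jund, Fosb and Fosl2 had log2 fold changes of -0.54, -0.85, -0.65 and -0.67. None of them was called (limma adjusted p = 0.231, 0.242, 0.402 and 0.0956).

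**Figure D2:**
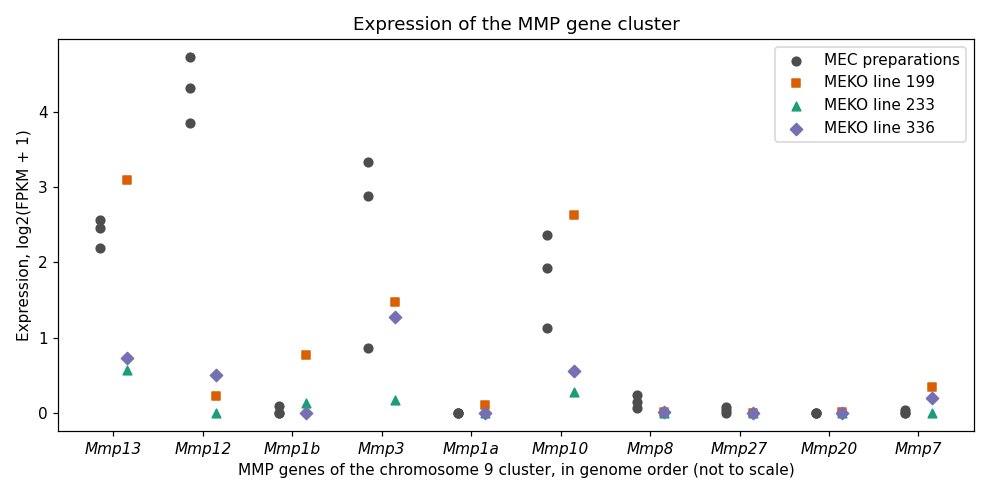
FPKM in each library of the 10 MMP genes of the chromosome 9 cluster, drawn in their order along the chromosome on a log2(FPKM + 1) axis. Mmp12 is the gene of the cluster that separates all lines from all MEC preparations above 1 FPKM, while Mmp13 and Mmp10 are highest in line 199.

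Mmp11, a stromelysin that is activated by furin inside the cell, was 1 of the genes that rose. It was at 3.69, 5.33 and 6.09 FPKM in MEC and at 13.6, 11.1 and 15.2 FPKM in lines 199, 233 and 336. Every line was above every MEC preparation, and the lines lay close to one another. The means were 5.04 ± 1.23 and 13.3 ± 2.07 FPKM (SD, n = 3 each), with a log2 fold change of 1.25 (SE 0.22, adjusted p = 0.0205). The adjusted p was 0.0881 without MEC 1, 0.0827 without MEC 2 and 0.0531 without line 336. Mmp11 lies at chr10:75923222-75936496 on the minus strand.

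Among the membrane-type MMPs, Mmp14 had the highest FPKM of the MMP and ADAMTS genes in every library but was not called. It activates Mmp2 precursor at the cell surface and cuts fibrillar collagen. Its values were 209, 225 and 222 FPKM in MEC and 103, 182 and 177 FPKM in the lines. All lines were below all MEC preparations, with line 199 the lowest, but the log2 fold change was -0.55 (SE 0.24, adjusted p = 0.196). Mmp15, a second membrane-anchored member, was at 12.8, 12.7 and 19.9 FPKM in MEC and 2.34, 5.77 and 11.2 FPKM in the lines. The groups again did not overlap and the difference was not called (log2 fold change -1.28, adjusted p = 0.142). Mmp24 is best known from neural tissue, where it cuts N-cadherin, and was at 0.765, 0.983 and 0.641 FPKM in MEC. It was at 0.0583 FPKM in line 199, below MEC, and at 18.3 and 5.25 FPKM in lines 233 and 336, above MEC (log2 fold change 1.49, SE 0.98, adjusted p = 0.363). Of the exons of Mmp24, 13.6% are shared with the opposite-strand gene BC029722, and whether the counting used strand is not given in the sources used here. Without line 199 the adjusted p of Mmp24 was 0.0220. Mmp23, which is anchored to the membrane through its amino terminus, was at 6.92, 7.10 and 13.6 FPKM in MEC and at 4.36, 0.266 and 0.521 FPKM in the lines. Each line lay below MEC but line 199 was the nearest, and the adjusted p was 0.0675 (log2 fold change -2.17), or 0.00597 without line 199.

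The ADAMTS proteases that cleave proteoglycans such as aggrecan and versican included 3 of the 6 genes that fell. Adamts1 (chr16:85793827-85803113, minus strand) was the most abundant ADAMTS gene of MEC, at 63.8, 71.9 and 60.4 FPKM, and was at 17.4, 4.58 and 6.18 FPKM in lines 199, 233 and 336. The MEC values lay in a narrow range far above each line, with means of 65.4 ± 5.91 and 9.39 ± 6.98 FPKM (SD, n = 3 each). The log2 fold change was -2.87 (SE 0.44, adjusted p = 0.0137), and the adjusted p was between 0.0607 and 0.0706 when any 1 MEC preparation was left out. Adamts8 (chr9:30942562-30963838, plus strand) and Adamts15 (chr9:30899155-30922452, minus strand) stand next to each other and were both low in the lines. Adamts8 was at 2.46, 2.90 and 1.69 FPKM in MEC and 0.729, 0.0133 and 0.0976 FPKM in the lines (log2 fold change -1.41, SE 0.31, adjusted p = 0.0390). Adamts15 was at 2.199, 2.54 and 6.99 FPKM in MEC and 0.290, 0.121 and 0.435 FPKM in the lines (log2 fold change -1.82, SE 0.39, adjusted p = 0.0377). No line reached the lowest MEC preparation for either gene. Their calls were the least stable: Adamts15 was called without line 199 but with no other library left out (adjusted p 0.0607 to 0.102 for the other 5), and likewise Adamts8 (0.0801 to 0.162, and below the expression filter without MEC 2). Of the exons of Adamts8, 10.6% are shared with Gm29724 on the opposite strand.

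The main aggrecanases Adamts4 and Adamts5 were not called. Adamts5 was at 12.3, 6.53 and 33.6 FPKM in MEC and 1.17, 6.001 and 0.926 FPKM in lines 199, 233 and 336. The groups did not overlap, although line 233 came close to the lowest MEC preparation (log2 fold change -2.30, SE 0.71, adjusted p = 0.0952). Adamts4 was at 4.30, 3.35 and 6.10 FPKM in MEC and at 4.73, 0.0587 and 97.0 FPKM in the lines. It thus ranged from near 0 in line 233 through the MEC level in line 199 to the highest ADAMTS value of any library in line 336, and its group difference carried an SE larger than itself (log2 fold change 0.62, SE 1.52, adjusted p = 0.818). Without line 336 the log2 fold change of Adamts4 was -1.15.

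The procollagen N-proteinases Adamts2, Adamts3 and Adamts14 remove the amino-terminal propeptide of fibrillar procollagens. Adamts3 (chr5:89677087-89883334, minus strand) was at 2.98, 3.74 and 2.19 FPKM in MEC, at 0.00233 and 0.00566 FPKM in lines 199 and 233, and listed at 0 in line 336. It was close to 0 in each line, with a log2 fold change of -1.97 (SE 0.25, adjusted p = 0.00807), and the adjusted p was 0.0677 without MEC 1 and 0.0557 without MEC 2. Adamts2 was at 2.53, 3.72 and 2.28 FPKM in MEC and at 5.53, 0.0158 and 0.00294 FPKM in the lines. Line 199 lay above MEC and the other lines far below (log2 fold change -1.01, SE 0.75, adjusted p = 0.415, or 0.00901 without line 199). Adamts14 was at 0.229, 0.434 and 0.477 FPKM in MEC and 3.38, 0.820 and 0.843 FPKM in the lines. Its lines were all above MEC, at low levels, and it was not called (log2 fold change 0.83, adjusted p = 0.234).

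None of the 4 remaining tested ADAMTS genes was called. Adamts7 and Adamts12, which cleave cartilage oligomeric matrix protein, differed in how the lines fell: Adamts7 was at 2.73, 2.07 and 3.25 FPKM in MEC and 1.37, 1.58 and 0.705 FPKM in the lines, without overlap (log2 fold change -0.74, adjusted p = 0.128). Adamts12 was at 1.99, 2.32 and 1.56 FPKM in MEC and 3.52, 0.00337 and 0.00637 FPKM in the lines, with line 199 above MEC and the others close to 0 (log2 fold change -0.82, adjusted p = 0.419, or 0.0140 without line 199). Adamts6 and Adamts10 are linked to fibrillin microfibrils. Adamts6 was at 2.19, 1.88 and 2.76 FPKM in MEC and 2.68, 0.533 and 0.0522 FPKM in the lines, so line 199 was within the MEC range (log2 fold change -0.85, adjusted p = 0.292, or 0.0289 without line 199). Adamts10 was at 1.29, 0.866 and 2.09 FPKM in MEC and 2.80, 0.643 and 2.204 FPKM in the lines, a spread on both sides of MEC (log2 fold change 0.20, adjusted p = 0.766).

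Timp2 rose and had the highest FPKM of the TIMP genes in each MEKO line, whereas Timp1 was highest in MEC 1 and MEC 2 and Timp3 in MEC 3. Timp2, which besides inhibiting MMPs takes part in the activation of Mmp2 by Mmp14, lies at chr11:118301069-118355740 on the minus strand. It was at 71.1, 75.5 and 104 FPKM in MEC and at 191, 163 and 188 FPKM in lines 199, 233 and 336. Every line was above every MEC preparation, with means of 83.7 ± 18.1 and 180.5 ± 15.7 FPKM (SD, n = 3 each). The log2 fold change was 1.12 (SE 0.19, adjusted p = 0.0177), and the adjusted p was 0.0879 without MEC 1 and 0.0857 without MEC 2. Timp1, a secreted inhibitor of most soluble MMPs, was at 253.5, 241 and 102 FPKM in MEC and 90.8, 34.6 and 31.6 FPKM in the lines. The groups did not overlap, but MEC 3 and line 199 lay close together and the difference missed the threshold (log2 fold change -1.97, SE 0.52, adjusted p = 0.0620, or 0.0174 without line 199). Timp3, which is bound to the matrix and also inhibits ADAMTS and ADAM proteases, was at 114, 130 and 177 FPKM in MEC and 144, 28.9 and 61.6 FPKM in the lines. Line 199 was within the MEC range and the other lines below it (log2 fold change -1.10, adjusted p = 0.246, or 0.0331 without line 199). Of the exons of Timp3, 21.3% are shared with Syn3, which runs in the opposite direction. Timp4 was listed at 0 in every library except line 336, where it was at 0.0476 FPKM.

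Since FPKM is scaled to transcript length, the values of each family can be summed within a library as a description. The 23 MMPs summed to 343, 409 and 336 FPKM in MEC and to 176, 220 and 213 FPKM in lines 199, 233 and 336. Mmp14 made up 60.9%, 55.1% and 66.3% of this sum in MEC and 58.4%, 82.9% and 82.8% in the lines. It was thus the main MMP transcript in every library, with the largest shares in lines 233 and 336. Without Mmp14, the sum was 134, 184 and 113 FPKM in MEC and 73.2, 37.6 and 36.8 FPKM in the lines. The 19 ADAMTS genes summed to 101.5, 104.8 and 125 FPKM in MEC and to 44.0, 14.7 and 108.7 FPKM in the lines. The high sum of line 336 was almost entirely Adamts4. The TIMPs summed to 439, 447 and 384 FPKM in MEC and to 426, 226 and 281 FPKM in the lines, and the ratio of the TIMP sum to the MMP sum was 1.28, 1.09 and 1.14 in MEC and 2.42, 1.03 and 1.32 in the lines. Lines 199 and 336 lay above the MEC range of this ratio and line 233 below it. The make-up of the TIMP sum differed in each line from MEC: Timp1 gave 26.6% to 57.8% of it in MEC and 11.2% to 21.3% in the lines, while Timp2 gave 16.2% to 27.2% in MEC and 44.96% to 71.9% in the lines.

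**Figure D3:**
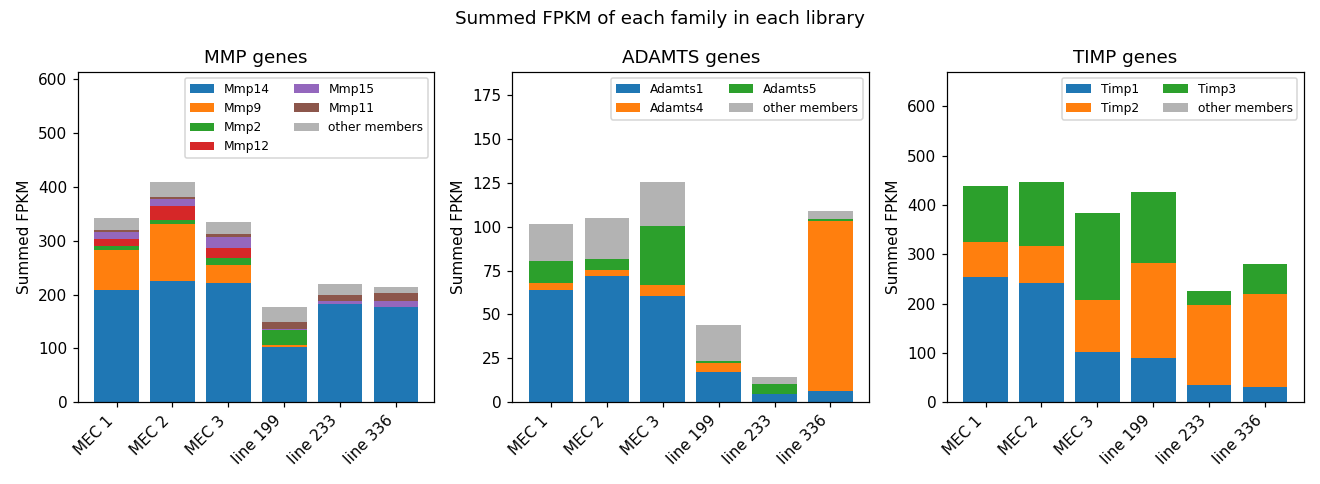
Summed FPKM of the MMP, ADAMTS and TIMP genes in each of the 6 libraries, as stacked bars from 0 with the leading genes of each family in their own color. The MMP sum is at most 220 FPKM in the lines and at least 336 FPKM in MEC, Adamts4 fills the ADAMTS bar of line 336, and Timp2 is the largest TIMP segment in each line.

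Each line was then set against the 3 MEC preparations on its own. A gene was counted as beyond MEC where the line lay outside the MEC range and its log2 ratio of (FPKM + 1) to the MEC mean was past 0.75; with 1 library per line this is a count without a test. In line 199, 12 of the 26 genes were lower and 5 higher, against 17.3% and 12.4% of all tested genes. In line 233, 19 were lower and 3 higher, against 17.8% and 9.45%. In line 336, 17 were lower and 4 higher, against 18.5% and 10.7%. All lines were lower for 9 genes, against 8.31% of all tested genes: Mmp9, Mmp12, Mmp23, Adamts1, Adamts3, Adamts5, Adamts8, Adamts15 and Timp1. Among them Mmp12, Adamts3, Adamts8 and Adamts15 were tested only because of their level in MEC. Genes with a MEKO mean under 1 FPKM were 15.4% of the 26 and 5.45% of all tested genes. The counts of lower genes and their shares are therefore not like for like. Mmp11 and Timp2 were higher in each line, for which the share of all tested genes was not computed.

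Line 199 departed most often from the other lines. Lines 233 and 336 were both lower than MEC for 16 genes, against 12.9% of all tested genes. For 7 of these line 199 was not lower, against 4.54% of all tested genes. The 7 were Mmp2, Mmp10, Mmp13, Adamts2, Adamts6, Adamts12 and Timp3, which together span gelatinase, stromelysin, collagenase, procollagen-processing and inhibitor roles. The reverse cases were rarer: Mmp15 was lower in lines 199 and 233 but not in line 336 (1.85% of all tested genes), and for 0 genes were lines 199 and 336 lower with line 233 not (2.3%). Line 199 was the highest of the lines for 16 of the 26 genes, against 39.6% of all tested genes, and lines 233 and 336 for 5 each, against 27.5% and 32.5%. Line 199 also held far more RNA of the fibroblast markers than the other lines, with Col1a1 at 600 FPKM and Col1a2 at 408 FPKM, subunits of type I collagen. The fibroblast proteoglycans were near 0 there, with Dcn at 0.311 FPKM and Lum at 0.0264 FPKM. The basal markers of line 199 were split, with Krt5, Krt14 and Trp63 above the MEC range at 608, 521 and 15.6 FPKM, Acta2 just below it at 719 FPKM, and Myh11 and Oxtr near 0. Those of lines 233 and 336 were all below the MEC range. The part of these markers in the values of line 199 was not tested. For 4 genes, Mmp2, Mmp24, Adamts2 and Adamts4, at least 1 line was higher and another lower by the beyond-MEC rule, against 2.91% of all tested genes. Mmp10, Mmp13 and Adamts12 also had line 199 above the MEC range and lines 233 and 336 below it. Line 199 missed the log2 cut of that rule for these genes, at 0.73, 0.68 and 0.61. Adamts10 lay on both sides of the MEC range too, with no line past the cut.

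**Figure D4:**
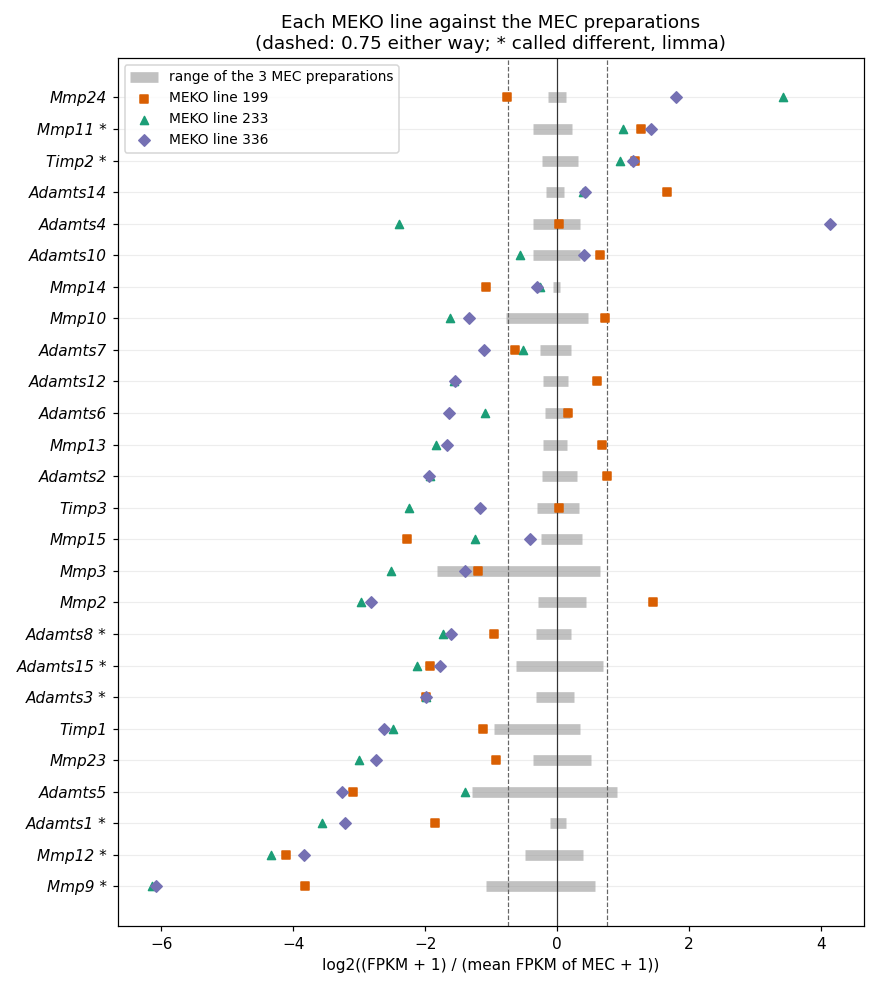
Log2 ratio of (FPKM + 1) in each MEKO line to the MEC mean for the 26 tested genes, with 1 point per line and grey bars for the range of the MEC preparations. Line 199 lies near or above MEC for Mmp2, Mmp13, Adamts2, Adamts12 and Timp3, where lines 233 and 336 lie below, and Adamts4 runs from -2.40 in line 233 to 4.13 in line 336.

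The other 20 genes had a mean under 1 FPKM and were left out of the test. Of these, 4 reached 1 FPKM in at least 1 library. Mmp17, a membrane-type MMP with a lipid anchor, was at 0.605 to 0.833 FPKM in MEC and at 2.43, 0.0178 and 0.179 FPKM in lines 199, 233 and 336. Mmp19 was at 0.321 to 0.866 FPKM in MEC and 1.83, 0.0345 and 0.509 FPKM in the lines, and 22.3% of its exons are shared with Tmem198b. Mmp28, or epilysin, was at 0.279 to 0.5997 FPKM in MEC and 2.40, 0.899 and 0.157 FPKM in the lines, and 12.0% of its exons are shared with 1700020L24Rik. Each of these was highest in line 199, above all MEC preparations. Adamts9, a proteoglycan-cleaving enzyme, was at 1.26, 1.35 and 1.22 FPKM in MEC and 0.213, 0.195 and 0.00790 FPKM in the lines, without overlap. In a fit with no expression filter, which took in 19 of the 20 genes, Adamts9 was the 1 that was called (log2 fold change -1.01, limma adjusted p = 0.00938). The remaining 16 genes were below 1 FPKM in every library, with a highest value of 0.991 FPKM for Adamts20 in MEC 1, and Adamts19 was listed at 0 throughout.

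Other genes of proteolysis at and near the cell surface, called regulators below, were taken from a list of 47, of which 32 were tested. The list holds genes of plasminogen activation, proprotein convertases, inhibitors, and surface inducers or docking partners. It also holds ADAM sheddases, ADAMTS-like proteins and astacin proteases with their enhancers, which are not all regulators of MMPs or ADAMTS proteases. By the same rule 5 fell and 1 rose, or 15.6% and 3.12% of those tested against 7.26% and 2.64% of all tested genes, and their median log2 fold change was -0.46. The 2 called proprotein convertases, which remove the propeptides of Mmp11, Mmp14 and ADAMTS proteases, moved in opposite directions. Furin fell from 60.0 ± 5.73 to 25.4 ± 6.41 FPKM (log2 fold change -1.24, adjusted p = 0.0214), and Pcsk6 rose from 6.87 ± 1.69 to 20.6 ± 5.29 FPKM (log2 fold change 1.45, adjusted p = 0.0217; mean ± SD, n = 3 each). Papln, which encodes the ADAMTS-like matrix protein papilin, was at 23.2, 22.1 and 34.2 FPKM in MEC and at 0.0149, 0.0116 and 0.840 FPKM in the lines, far below MEC in each (log2 fold change -4.45, adjusted p = 0.00157). Tfpi2, a serine protease inhibitor that blocks plasmin, was at 9.56, 8.57 and 3.12 FPKM in MEC, at 0.170 and 0.0160 FPKM in lines 199 and 336 and listed at 0 in line 233 (log2 fold change -2.82, adjusted p = 0.0109). The procollagen C-proteinase gene Bmp1 fell (log2 fold change -1.22, adjusted p = 0.0487, or 0.0518 to 0.0748 under 5 other settings of scaling, filter, pseudocount and trend), as did the sheddase gene Adam10 (log2 fold change -0.89, adjusted p = 0.0268). Papln and Tfpi2 passed the expression filter only through their level in MEC, with MEKO means of 0.289 and 0.0620 FPKM. Of these 6, Papln alone was called when any 1 library was left out (adjusted p at most 0.0148). Furin, Pcsk6, Adam10 and Bmp1 were lost without any 1 of the MEC preparations (adjusted p 0.0680 to 0.167), Tfpi2 without MEC 1 or MEC 2 (0.0615 and 0.0601), and Adam10 and Bmp1 also without line 233 (0.0578 and 0.0814), with Adam10 at 0.0594 without line 336.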

How the data were processed

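RNA-seq libraries of 3 MEC preparations and 3 MEKO lines were analysed, with groups taken from the sample titles and descriptions. Per the submitters' processing notes and methods, the authors aligned paired-end reads to GRCm38 with Bowtie2 and TopHat2 2.0.14 and quantified genes with Cufflinks 2.2.1. The deposited values are FPKM, which the authors scaled to the length of each transcript and the size of each library. The authors' Cuffdiff comparison was not repeated because it needs reads. FPKM gives no read numbers, so absolute depth is unknown and no counting interval was computed. Relative depth was the most frequent ratio of values under 0.15 to MEC 1, in bins of 0.02 on the log2 scale. The preparations and lines are separate cultures, and no batch is given by the labels.

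Genes with a mean of at least 1 FPKM entered a limma fit (version 3.58.1, R 4.3.3) on log2(FPKM + 1) that allowed the variance to follow the mean, and p-values were adjusted over all 12461 by Benjamini-Hochberg. A gene was called at an adjusted p under 0.05 and a log2 fold change beyond 0.75. The fit was tested on simulated data in which every gene had the same spread and only genes with a higher mean were changed. That test does not cover genes with a low FPKM or a line that stands apart. The text names every gene with a mean of at least 1 FPKM, every called gene, every Timp gene, those that reached 1 FPKM in any library, and every called regulator. Adamts20, Adamts19 and the AP-1 and marker genes are named as ends of a range or as background values. The genes and lists were chosen with earlier results of these data known. Alternatives were pseudocount, filter, normalization, trend, sample weights, fold threshold and each library left out. Positions are from GENCODE on GRCm38 and promoter sequences from RefSeq (GRCm38.p6).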

Additional observations from a re-analysis of the deposited data

Results flagged for a closer look

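For 4 genes, at least 1 MEKO line lay above the range of the 3 MEC preparations and another lay below it, by more than 0.75 on the log2 scale of (FPKM + 1) relative to the MEC mean. There is 1 library per line, so these differences between lines were not tested. For Mmp2 the log2 ratio was 1.45 in line 199, while line 233 was at -2.97 and line 336 at -2.83. For Adamts2, line 199 was at 0.76 and lines 233 and 336 were at -1.92 and -1.94. Mmp24 ran in the opposite order, at -0.76 in line 199 and at 3.42 and 1.80 in lines 233 and 336. Adamts4 was -2.40 in line 233 and 4.13 in line 336, with line 199 at the MEC level.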

How the results depend on the processing

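No paired analysis was possible because the groups share no replicate numbers. With 1 library left out at a time, the genes called ranged from 1 to 14 lower and from 0 to 3 higher, and the regulators from 1 to 7 lower and from 0 to 1 higher. Without MEC 1 or MEC 2, calls over all genes fell from 1234 to 259 and 301, and without line 199 they rose to 1966. A filter at a mean of 5 FPKM left 13 of the 26 genes to test, and 738 of all 9216 tested genes were called. It gave 3 lower genes and 3 lower regulators. Beyond MEC it gave 3 higher genes in line 199, 10 lower in line 233 and 8 lower in line 336. A pseudocount of 0.1 gave 9 higher genes in line 199. For the counts by line, the share of all genes was not computed under these settings. Sample weights, whose estimation did not fully converge, gave 9 lower regulators (the cause was not tested) and 10 of the 26 genes called in all. Calls over all genes also rose, to 1978 of 12461. Quantile normalization moved the median log2 fold change of all genes from 0.01 to 0.10 and dropped Adamts8 and Adamts15. Adamts8 was also lost with a pseudocount of 0.1 (adjusted p = 0.0661) and Adamts15 without a filter (adjusted p = 0.0575), where Adamts9 was gained. Adamts4 reversed to -0.11 with a pseudocount of 0.1, and it ranged from -1.15 (without line 336) to 2.11 (without line 233). Adamts10 ranged from -0.042 (without line 199) to 0.56 (without line 233). Of the remaining values of single genes, 377 kept direction and side of the threshold, 48 lost the call and 11 gained it. Values under 1 FPKM are the least precise.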
